A study of Homo sapiens with 12 samples.

Results

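The proteasome is the barrel-shaped protease that degrades ubiquitin-tagged proteins, and its subunit genes carry the PSM symbols. The members described here were the genes with a probe set whose only gene symbol was PSMA, PSMB, PSMC, PSMD, PSME, PSMF or PSMG followed by a number, leaving out the immunoproteasome subunits PSMB8, PSMB9 and PSMB10. The rule found 39 genes, measured by 78 probe sets, among 19775 genes with a single-symbol probe set. Each gene was represented by its brightest probe set, the one with the highest mean over all arrays. Of these, 38 were above the level filter and were tested. PSMA8, the testis-type alpha subunit, had a mean of 3.10 on the log2 scale and lay below it. Of 45 subunit genes listed by symbol, 6 were not analysed here (1 alpha, 1 beta, 1 ATPase, 2 lid and 1 activator gene); among them, PSMA6 and PSME2 had probe sets that carried a second symbol.

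The cells were MDA-MB-231, an established human triple-negative breast cancer line. They were transfected with siRNA at 33 nM on day 2 after plating, given new medium on day 3 and harvested on day 4. The 3 groups were a control siRNA, a first siRNA mix against YAP and TAZ (siYAP/TAZ#1, called mix 1 here) and a second such mix (siYAP/TAZ#2, mix 2), each with 4 biological replicates, A to D, handled in parallel. YAP, encoded by YAP1, and TAZ, encoded by WWTR1, are transcriptional co-activators of the Hippo pathway. Total RNA was hybridised to Affymetrix expression arrays, 1 array per replicate, and the deposited values are log2 probe set levels. The same 4 control arrays served both comparisons of a mix with control, so those comparisons are not independent.

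The core particle of the proteasome is a stack of alpha rings, which gate the entrance, around beta rings, which hold the proteolytic sites. The regulatory particle sits on its end: the base unfolds substrates with a ring of ATPases, and the lid removes ubiquitin chains. Dedicated chaperones put the rings together and leave before the particle is finished, and alternative activators can take the place of the regulatory particle. In cells with impaired proteasomes the transcription factor NFE2L1 is known to drive subunit genes together through antioxidant response elements in their promoters.

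The knockdown left 12.4% of the control YAP1 level under mix 1 and 11.9% under mix 2, and 19.8% and 18.3% of WWTR1. Array medians lay between 5.69 and 5.78, and replicates of a group correlated at 0.993 to 0.998 over probe sets. For the cell line label, VIM, CD44, ZEB1 and AXL were all above the filter, and CDH1 and PGR were below it. Of the receptor genes that define the triple-negative class, PGR (control mean 3.555) was thus below it. ESR1 (control mean 6.31) and ERBB2 (control mean 7.76) were above it. The blood cell marker CD3E had a control mean of 6.17, near that of ESR1. A level above the filter does not by itself show that a gene was expressed. Of 11 markers of blood, vessel and fibroblast cells, 10 were measured and 6 were above the filter. Their summed linear level was 486 to 518 on the control arrays, 1700 to 2131 under mix 1 and 1452 to 1613 under mix 2. LYZ, PECAM1, COL1A1 and CD14 rose under each mix, CD3E and VWF did not pass the threshold, and PTPRC, CDH5, DCN and LUM were below the filter. The part of these markers in the results below was not tested.

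Most proteasome subunit mRNAs were lower after either YAP/TAZ siRNA mix. Under mix 1, 30 of the 38 tested members fell and 2 rose (limma, adjusted p below 0.05), so 84.2% of the members were called. Over all 13225 genes tested, 67.1% were called, 32.3% lower and 34.8% higher. The median difference of the members was -0.30 on the log2 scale, against 0.005 over all genes. Under mix 2, 27 members fell and 1 rose, 73.7% in all, where 68.6% of all genes were called, 31.9% lower and 36.7% higher. The members' median was -0.28, against 0.03 over all genes. The share of members called was therefore near the background under mix 2, while the share called lower was 71.1%.

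The changes were mostly small. A difference of at least 2-fold past the threshold was seen in 2 members under mix 1 and 3 under mix 2, where 16.4% and 18.4% of all genes reached it. The 4 arrays of mix 1 lay wholly below the 4 control arrays in 30 members and wholly above them in 2, where the ranges did not overlap in that direction for 31.0% and 32.3% of all genes. For mix 2 the counts were 28 below and 1 above, against 31.0% and 33.8% of all genes. In 31 of the 38 members, a count not made over all genes, the lowest mix 2 array was replicate D. It also had the highest 3′ minus 5′ difference of its group, a sign of RNA quality, for actin (1.83, against 1.36 to 1.57) and GAPDH (0.42, against 0.33 to 0.39). The control arrays had 1.38 to 1.99 and 0.34 to 0.45 and the mix 1 arrays 1.61 to 2.24 and 0.33 to 0.51. The part of RNA quality in the results was not tested. Without that array 27 members were still called under mix 2, 26 of them lower, with a median of -0.25. With all arrays, 68.6% of all genes were called under mix 2, 31.9% lower.

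**Figure D1:**
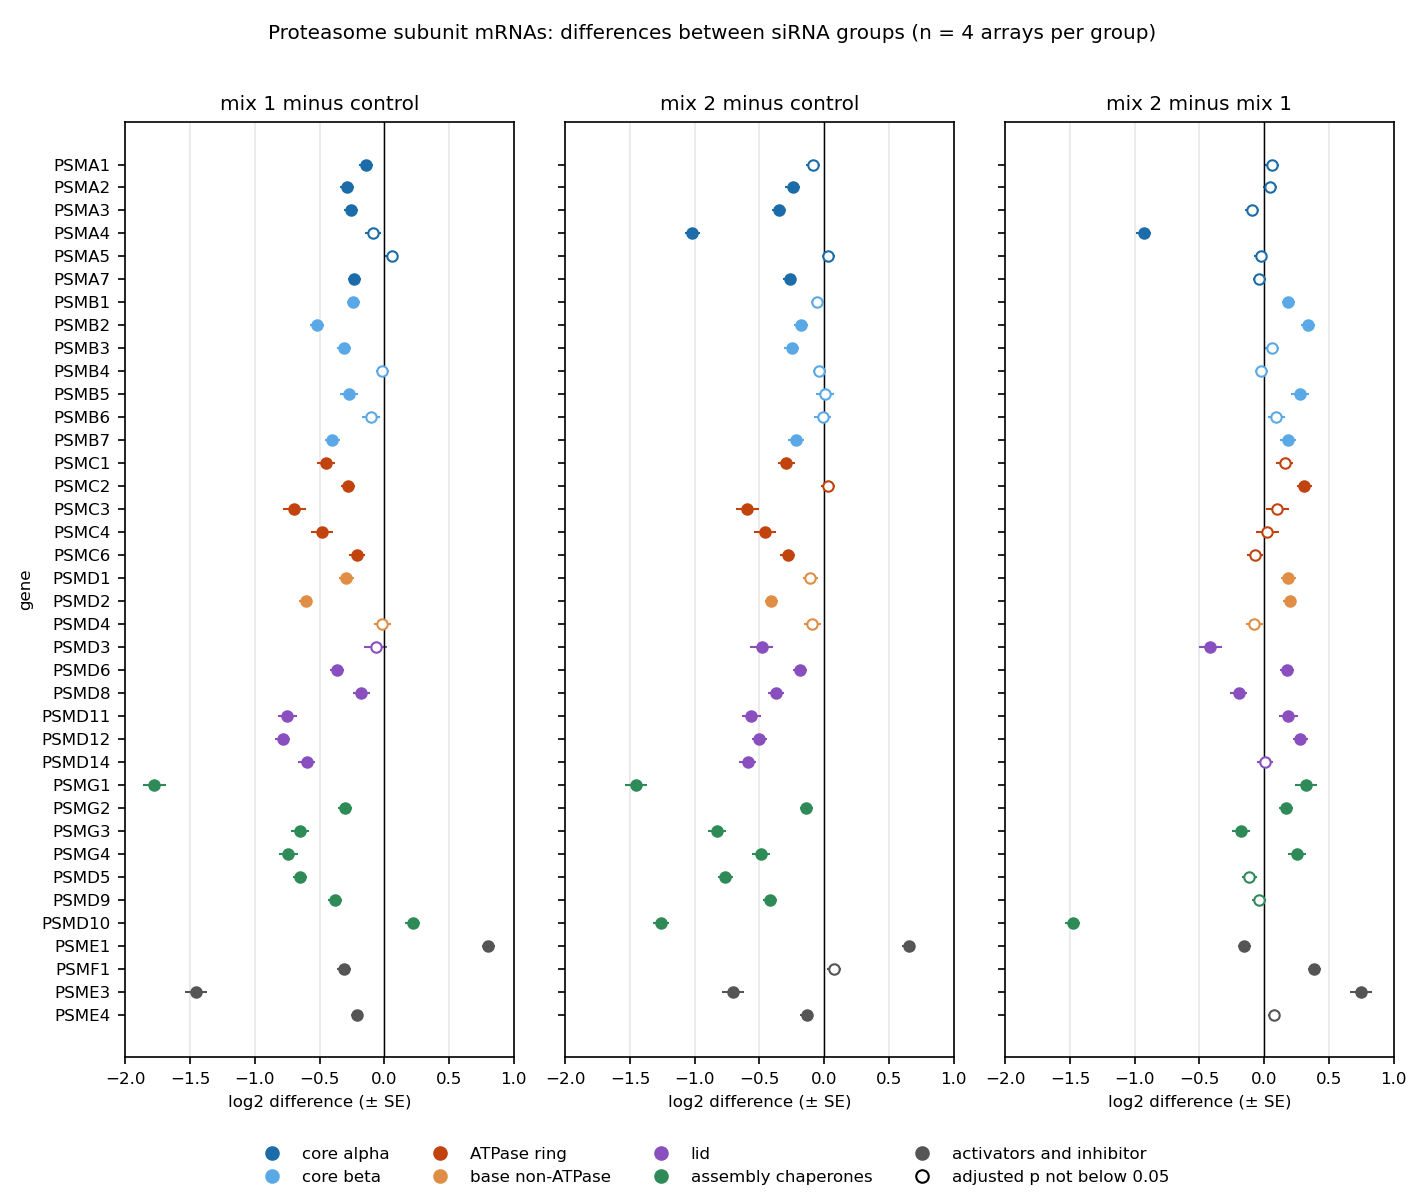
Log2 difference (horizontal axis, with its standard error) of each of the 38 tested members (vertical axis) for mix 1 minus control, mix 2 minus control and mix 2 minus mix 1, with 4 arrays per group and colours for the subunit classes. Filled points passed the adjusted p threshold of 0.05; most lie left of 0 in the first and second panels, PSME1 stands to the right in both, and PSMD10 changes side.

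In both comparisons with control, 24 members fell under each mix and PSME1 rose under each. The share of all genes called the same way under both mixes was not counted, and both comparisons use the same 4 control arrays. PSMD10 rose under mix 1 and fell under mix 2. PSMA4 and PSMD3 fell under mix 2 and did not pass the threshold under mix 1. PSMA1, PSMB1, PSMB5, PSMC2, PSMD1 and PSMF1 fell under mix 1 and did not pass it under mix 2. PSMA5, PSMB4, PSMB6 and PSMD4 passed it under neither. The mixes were also compared with each other: 21 of 38 members differed, 15 higher and 6 lower under mix 2, or 55.3%. Of all genes 53.7% differed, 28.7% higher and 25.0% lower, so the members' share was near the background. The members' median in that comparison was 0.07, against 0.025 over all genes. When probe sets that may match more than 1 transcript family (those with _s_at and _x_at names) were left out, the split was 7 higher and 7 lower among 28 members, with a median of -0.02. In the full set, the mix 2 arrays lay wholly above the mix 1 arrays in 11 members and wholly below them in 5, against 24.3% and 21.7% of all genes. The mixes differed by at least 2-fold in 1 member, PSMD10, and in 6.25% of all genes.

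The promoters of PSMG1, PSMD12, PSMD10 and PSME1 are shown here as examples, since the subunit genes are known to share promoter elements. The windows run from 250 bases before to 50 after a RefSeq start of each gene (GRCh38.p14) and were found for 33 of the 39 members. Some members had more than 1 start, which gave 39 windows in all. The window of PSMG1 is chr21:39183402-39183701 on the minus strand, that of PSMD12 is chr17:67366528-67366827 on the minus strand, that of PSMD10 is chrX:108091493-108091792 on the minus strand and that of PSME1 is chr14:24135944-24136243 on the plus strand. Each is written 5′ to 3′ on the gene's strand. Capitals mark matches, on either strand, to the antioxidant response element core TGACNNNGC and to the CCAAT box.
PSMG1: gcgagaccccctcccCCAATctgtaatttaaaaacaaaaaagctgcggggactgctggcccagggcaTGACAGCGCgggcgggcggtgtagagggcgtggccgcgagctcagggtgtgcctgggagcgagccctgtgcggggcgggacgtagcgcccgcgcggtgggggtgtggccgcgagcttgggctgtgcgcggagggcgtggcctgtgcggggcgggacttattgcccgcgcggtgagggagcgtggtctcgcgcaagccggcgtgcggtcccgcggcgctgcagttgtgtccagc
PSMD12: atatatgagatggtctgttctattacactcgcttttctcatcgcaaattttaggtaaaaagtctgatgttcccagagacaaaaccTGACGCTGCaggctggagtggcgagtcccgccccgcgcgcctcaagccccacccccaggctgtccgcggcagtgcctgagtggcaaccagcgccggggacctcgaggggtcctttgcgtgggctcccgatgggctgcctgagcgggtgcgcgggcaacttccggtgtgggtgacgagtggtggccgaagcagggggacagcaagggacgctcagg
PSMD10: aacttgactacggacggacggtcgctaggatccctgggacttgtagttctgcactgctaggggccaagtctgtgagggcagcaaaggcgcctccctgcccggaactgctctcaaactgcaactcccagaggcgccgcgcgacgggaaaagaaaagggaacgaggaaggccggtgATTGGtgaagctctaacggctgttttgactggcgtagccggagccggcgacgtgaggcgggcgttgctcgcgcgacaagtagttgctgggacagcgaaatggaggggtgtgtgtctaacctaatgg
PSME1: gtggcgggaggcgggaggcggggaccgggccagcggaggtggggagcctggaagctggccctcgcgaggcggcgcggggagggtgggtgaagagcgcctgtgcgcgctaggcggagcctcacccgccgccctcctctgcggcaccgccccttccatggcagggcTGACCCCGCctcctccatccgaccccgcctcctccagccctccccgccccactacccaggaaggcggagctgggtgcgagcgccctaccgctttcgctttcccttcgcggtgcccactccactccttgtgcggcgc
The windows of PSMG1, PSMD12 and PSME1 each hold a TGACNNNGC match, and those of PSMG1 and PSMD10 hold a CCAAT match, which in PSMD10 is read on the opposite strand as ATTGG. PSMG1 and PSMD12, which fell, and PSME1, which rose, thus share the TGACNNNGC letters. The window of PSME3, which fell 2.74-fold under mix 1, is not printed. It holds a CCAAT match and no TGACNNNGC match.

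Over the 33 members with a window, TGACNNNGC was present in 12, or 36.4%, against 16.1% of 27303 genes with a window of the same length. The members holding it were PSMA4, PSMB3, PSMC4, PSMD1, PSMD3, PSMD5, PSMD9, PSMD12, PSME1, PSME4, PSMG1 and PSMG2. The CCAAT letters were present in 16 members, or 48.5%, against 39.7% of all genes. The core bound by YY1, AANATGGC, was present in 8 members, or 24.2%, against 7.97% of all genes. The core of the site bound by TEAD factors, the DNA-binding partners of YAP and TAZ, is GGAATG, and it was present in 4 members (PSMA4, PSMB5, PSMC6 and PSME3), or 12.1%, against 16.7% of all genes. These counts, over both strands, are descriptions of letters in the window and were not tested.

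The class counts below stand beside 32.3% of all genes lower under mix 1, 31.9% lower under mix 2 and, between the mixes, 28.7% higher and 25.0% lower under mix 2. Among the alpha subunits, which form the gate of the core, 4 of 6 fell under each mix, with medians of -0.19 under mix 1 and -0.26 under mix 2. PSMA4 read 12.37, 12.36, 12.23 and 12.22 on the control arrays, 12.28, 12.21, 12.16 and 12.18 under mix 1, and 11.18, 11.35, 11.28 and 11.30 under mix 2. The mix 2 arrays stood below all others, and the control and mix 1 ranges overlapped. The PSMA4 difference was -1.02 (SE 0.06, adjusted p = 9.66e-10) for mix 2 minus control, a 2.02-fold fall, -0.09 (SE 0.06, adjusted p = 0.21) for mix 1 minus control and -0.93 (SE 0.06, adjusted p = 9e-09) for mix 2 minus mix 1. PSMA4 had 1 probe set, so no other probe set could be compared. The other alpha subunits moved less. PSMA2 changed by -0.29 (adjusted p = 0.000291) under mix 1 and -0.24 (adjusted p = 0.00114) under mix 2, PSMA3 by -0.26 and -0.35, and PSMA7 by -0.23 and -0.27. PSMA3 lost its call under mix 1 when its probe sets were averaged (adjusted p = 0.854). That average took in a probe set below the filter (mean 5.40) and another just above it (mean 5.65). PSMA1 fell by 0.14 under mix 1 (adjusted p = 0.036) and lost the call when control replicate B, C or D, or else replicate A or B of mix 1, was left out, at adjusted p of 0.061 to 0.0974. PSMA5 differed from control by 0.06 and 0.03 and passed under neither mix, while its second probe set rose by 0.66 and 0.26.

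More beta subunits fell under mix 1 than under mix 2: 5 of 7 fell under mix 1, with a median of -0.27, and 3 of 7 under mix 2, with a median of -0.05, where 32.3% and 31.9% of all genes fell. In the direct comparison 4 of the 7 were higher under mix 2, where 28.7% of all genes were, and none was lower. Averaging the probe sets of a gene ended the calls of PSMB1, PSMB2 and PSMB7. PSMB1 then gave 0.03 (adjusted p = 0.601), PSMB2 0.05 (adjusted p = 0.464) and PSMB7 -0.015. The PSMB1 average took in a probe set below the filter (mean 4.29). The other PSMB1 probe set above the filter was called higher under mix 2, by 0.21 (adjusted p = 0.00306). PSMB5 has 1 probe set, so averaging left its values unchanged and could not test its call. With the brightest probe sets, PSMB2, a beta subunit without a proteolytic site, had the largest difference between the mixes in this class. PSMB2 read 12.34, 12.41, 12.44 and 12.38 on the control arrays, 11.84, 11.83, 11.96 and 11.87 under mix 1, and 12.22, 12.24, 12.26 and 12.12 under mix 2. All 3 groups were separate, with mix 1 lowest and mix 2 between. Its difference was -0.52 (SE 0.05, adjusted p = 7.25e-07) under mix 1, -0.18 (SE 0.05, adjusted p = 0.00782) under mix 2 and 0.34 (SE 0.05, adjusted p = 0.000107) between the mixes. PSMB2 has further probe sets above the filter, which fell by 0.63 and 0.78 under mix 1 and by 0.50 and 0.86 under mix 2, so the gap between the mixes was not seen in them.

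The catalytic beta subunits are PSMB5 (chymotrypsin-like site), PSMB6 (caspase-like site) and PSMB7 (trypsin-like site). PSMB5 differed from control by -0.27 (adjusted p = 0.0025) under mix 1 and 0.00 (adjusted p = 0.957) under mix 2, and the mixes differed by 0.28 (adjusted p = 0.00312). PSMB6 passed the threshold in no comparison, at -0.10 and -0.01. PSMB7 fell under each mix, by 0.40 and 0.22. Its difference between the mixes, 0.18 (adjusted p = 0.0199), was lost without mix 1 replicate B (adjusted p = 0.0602) or mix 2 replicate B (adjusted p = 0.0684). Of the structural beta subunits, PSMB3 fell under each mix (-0.31 and -0.25), while PSMB1 differed by -0.24 (adjusted p = 0.000737) under mix 1, a fall, and by -0.05 (adjusted p = 0.382) under mix 2, which did not pass. The mixes differed in PSMB1 by 0.18 (adjusted p = 0.00651). PSMB4 passed in no comparison, at -0.02 and -0.04.

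All 5 tested ATPases of the base, which unfold substrates and open the gate, fell under mix 1, with a median of -0.45, and 4 of 5 fell under mix 2, with a median of -0.29. PSMC3 fell most, by 0.70 under mix 1 (adjusted p = 6.11e-06) and 0.60 under mix 2 (adjusted p = 2.76e-05). PSMC4 changed by -0.48 and -0.46, PSMC1 by -0.45 and -0.29, and PSMC6 by -0.21 and -0.28. PSMC2 was the ATPase that differed between the mixes. PSMC2 read 12.57, 12.59, 12.66 and 12.66 on the control arrays, 12.37, 12.23, 12.38 and 12.38 under mix 1, and 12.64, 12.70, 12.69 and 12.57 under mix 2. The mix 1 arrays lay below all others, and the control and mix 2 ranges overlapped. The PSMC2 difference was -0.28 (SE 0.06, adjusted p = 0.000439) under mix 1, 0.03 (SE 0.06, adjusted p = 0.662) under mix 2 and 0.31 (SE 0.06, adjusted p = 0.000286) between the mixes. Its other probe sets rose under mix 2, by 0.61 and 0.43, and did not pass under mix 1, at -0.07 and -0.25, so the level under mix 2 depended on the probe set while the order of the mixes did not.

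The remaining subunits of the base are scaffolds and ubiquitin receptors. PSMD2 fell under each mix, by 0.61 (adjusted p = 6.93e-08) and 0.41 (adjusted p = 4.5e-06). PSMD1 differed by -0.29 (adjusted p = 0.000347) under mix 1, a fall, and by -0.11 (adjusted p = 0.11) under mix 2, which did not pass. The receptor PSMD4 passed in no comparison, at -0.02 and -0.09. PSMD1 and PSMD2 were higher under mix 2 than under mix 1, by 0.18 and 0.20.

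Most lid members fell under both mixes, with a median of -0.48 under mix 1 with 5 of 6 members lower and -0.49 under mix 2 with 6 of 6 lower. Of the lid members with a PSM symbol, PSMD12, a scaffold subunit whose promoter is printed above, fell most under mix 1. PSMD12 read 11.89, 12.03, 12.05 and 12.06 on the control arrays, 11.23, 11.19, 11.16 and 11.32 under mix 1, and 11.48, 11.54, 11.54 and 11.46 under mix 2. Every array of both mixes was below every control array, and mix 1 was below mix 2. Its difference was -0.78 (SE 0.06, adjusted p = 1.55e-08), -0.50 (SE 0.06, adjusted p = 1.84e-06) and, between the mixes, 0.28 (SE 0.06, adjusted p = 0.000846). The second probe set of PSMD12 fell by 0.34 and 0.54, which puts mix 2 lower, not higher, than mix 1, and with the PSMD12 probe sets averaged the mixes differed by 0.04 (adjusted p = 0.493). PSMD11 (a scaffold subunit of the lid) read 11.42, 11.55, 11.61 and 11.57 on the control arrays, 10.79, 10.63, 10.85 and 10.89 under mix 1, and 11.02, 11.01, 11.06 and 10.81 under mix 2. Both mixes were again wholly below control. The PSMD11 difference was -0.75 (SE 0.07, adjusted p = 3.89e-07) and -0.56 (SE 0.07, adjusted p = 7.57e-06). Its second probe set fell by 0.20 under mix 1 and by 1.37 under mix 2. PSMD11 was higher under mix 2 than under mix 1 by 0.18 (adjusted p = 0.0479). That call was lost without control replicate B, C or D, mix 1 replicate A or B, or mix 2 replicate A, B or C (adjusted p from 0.0551 to 0.152).

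PSMD14, the deubiquitinase that cuts ubiquitin chains off the substrate, fell under each mix. PSMD14 read 12.24, 12.30, 12.29 and 12.30 on the control arrays, 11.71, 11.59, 11.73 and 11.70 under mix 1, and 11.76, 11.72, 11.77 and 11.51 under mix 2. Both mixes lay below control and overlapped each other. The difference was -0.60 (SE 0.06, adjusted p = 8.61e-07) under mix 1, -0.59 (SE 0.06, adjusted p = 9.22e-07) under mix 2 and 0.01 (adjusted p = 0.935) between them. PSMD3 and PSMD8 were the lid members lower under mix 2 than under mix 1. PSMD3 read 9.89, 9.95, 9.80 and 9.67 on the control arrays, 9.66, 9.81, 9.95 and 9.63 under mix 1, and 9.36, 9.49, 9.37 and 9.16 under mix 2. The mix 2 arrays lay below all others, and control and mix 1 overlapped. PSMD3 differed by -0.06 (adjusted p = 0.546) under mix 1, -0.48 (SE 0.09, adjusted p = 0.000208) under mix 2 and -0.42 (SE 0.09, adjusted p = 0.00112) between the mixes. PSMD8 read 11.60, 11.74, 11.62 and 11.66 on the control arrays, 11.51, 11.43, 11.49 and 11.48 under mix 1, and 11.30, 11.40, 11.33 and 11.10 under mix 2. Here both mixes were below control, and mix 2 was below mix 1. PSMD8 changed by -0.18 (SE 0.07, adjusted p = 0.0266) under mix 1, a call lost without control replicate B (adjusted p = 0.0823), control replicate D (0.0525) or mix 1 replicate B (0.0654). It changed by -0.37 (SE 0.07, adjusted p = 0.00013) under mix 2 and -0.20 (SE 0.07, adjusted p = 0.0211) between the mixes, the last lost without mix 1 replicate A (adjusted p = 0.0511). PSMD6 changed by -0.36 and -0.18, with the mix 2 call lost when its probe sets were averaged (adjusted p = 0.097).

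**Figure D2:**
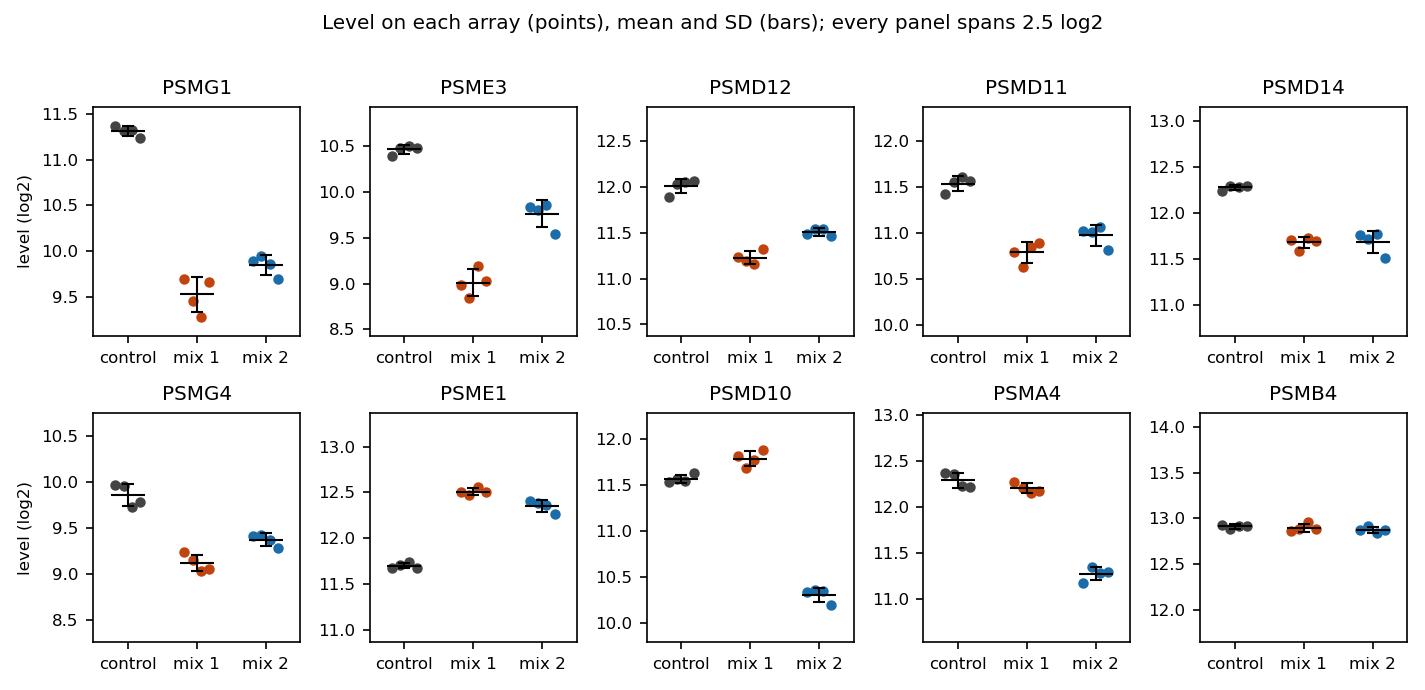
Log2 level on each array (vertical axis; points, with the mean and SD as bars) of 10 members in the control, mix 1 and mix 2 groups, 4 arrays each. PSMG1, PSME3, PSMD12, PSMD11, PSMD14 and PSMG4 are lower under both mixes, PSME1 is higher under both, PSMD10 and PSMA4 are low under mix 2, and PSMB4 differed little between the groups.

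The assembly chaperones had the largest median fall of the 7 classes, -0.65 under mix 1 with 6 of 7 lower and 1 higher, and -0.77 under mix 2 with 7 of 7 lower. The classes were not tested against each other. PSMG1, which with PSMG2 builds the alpha ring, showed the largest fall of any member under each mix. PSMG1 read 11.36, 11.31, 11.32 and 11.23 on the control arrays, 9.70, 9.46, 9.29 and 9.67 under mix 1, and 9.90, 9.95, 9.86 and 9.70 under mix 2. All arrays of both mixes were more than 1 log2 unit below the control arrays, and the mixes overlapped each other. PSMG1 fell by 1.78 (SE 0.09, adjusted p = 1.77e-10) under mix 1, 3.42-fold, and by 1.45 (SE 0.09, adjusted p = 1.33e-09) under mix 2, 2.74-fold. The mixes differed by 0.32 (SE 0.09, adjusted p = 0.0059). Its partner PSMG2 moved much less, by -0.30 (adjusted p = 0.000121) under mix 1 and -0.14 (adjusted p = 0.0318) under mix 2. The latter call was lost without any of control replicate A, B or D or mix 2 replicate A or D, at adjusted p of 0.0577 to 0.0907.

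PSMG3 and PSMG4 form the other chaperone pair of the alpha ring. PSMG3 read 10.14, 10.25, 10.24 and 10.08 on the control arrays, 9.51, 9.53, 9.65 and 9.42 under mix 1, and 9.39, 9.23, 9.47 and 9.30 under mix 2. Both mixes were below control, and 1 array of mix 2 lay within the mix 1 range. PSMG3 changed by -0.65 (SE 0.07, adjusted p = 9.13e-07) under mix 1, -0.83 (SE 0.07, adjusted p = 5.79e-08) under mix 2 and -0.18 (SE 0.07, adjusted p = 0.0414) between the mixes. The last was lost without control replicate A, mix 1 replicate A, B or C, or mix 2 replicate A, B or D (adjusted p from 0.0527 to 0.128). PSMG4 read 9.97, 9.96, 9.73 and 9.79 on the control arrays, 9.24, 9.15, 9.04 and 9.06 under mix 1, and 9.42, 9.43, 9.37 and 9.28 under mix 2. Mix 1 was lowest, mix 2 lay between, and no ranges overlapped. PSMG4 changed by -0.74 (SE 0.07, adjusted p = 2.57e-07), -0.49 (SE 0.07, adjusted p = 1.97e-05) and, between the mixes, 0.25 (SE 0.07, adjusted p = 0.00729). Its second probe set above the filter fell by 0.30 and 0.38.

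PSMD5, PSMD9 and PSMD10 hold ATPases while the base is built. PSMD5 read 10.61, 10.59, 10.51 and 10.46 on the control arrays, 9.94, 9.91, 9.89 and 9.83 under mix 1, and 9.88, 9.76, 9.76 and 9.71 under mix 2. All mix arrays were below all control arrays. PSMD5 changed by -0.65 (SE 0.06, adjusted p = 1.11e-07) under mix 1 and -0.76 (SE 0.06, adjusted p = 1.62e-08) under mix 2, and the mixes differed by -0.12 (adjusted p = 0.108). PSMD9 changed by -0.38 and -0.42, and its second probe set by -0.23 and -1.05. PSMD10, also known as gankyrin, was the member that moved in opposite directions. PSMD10 read 11.53, 11.56, 11.54 and 11.63 on the control arrays, 11.81, 11.68, 11.77 and 11.88 under mix 1, and 10.33, 10.36, 10.34 and 10.19 under mix 2. All 4 mix 2 arrays were more than 1 log2 unit below every other array, and the mix 1 arrays were all slightly above control. PSMD10 differed by 0.22 (SE 0.06, adjusted p = 0.00451) under mix 1, -1.26 (SE 0.06, adjusted p = 1.03e-10) under mix 2 and -1.48 (SE 0.06, adjusted p = 9.57e-11) between the mixes. The second PSMD10 probe set gave 0.20 under mix 1, which did not pass (adjusted p = 0.0863), and -1.25 under mix 2. The fall under mix 2 was thus seen by both probe sets, and the rise under mix 1 passed in the brighter of them alone.

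The activators moved in both directions. PSME1, the interferon-inducible activator subunit that with PSME2 forms a cap on the core, was the only member that rose under both mixes. PSME1 read 11.68, 11.71, 11.74 and 11.68 on the control arrays, 12.50, 12.47, 12.56 and 12.50 under mix 1, and 12.41, 12.39, 12.36 and 12.26 under mix 2. Every mix array was above every control array. PSME1 rose by 0.80 (SE 0.05, adjusted p = 3.24e-09), 1.75-fold, under mix 1 and by 0.65 (SE 0.05, adjusted p = 3.05e-08), 1.57-fold, under mix 2. The mixes differed by -0.15 (SE 0.05, adjusted p = 0.0221), a call lost without mix 1 replicate C (adjusted p = 0.0521). PSME3, the nuclear activator of the same family, fell under both. PSME3 read 10.39, 10.48, 10.50 and 10.48 on the control arrays, 8.98, 8.84, 9.19 and 9.03 under mix 1, and 9.83, 9.80, 9.86 and 9.54 under mix 2. Mix 1 was lowest, mix 2 lay between, and the ranges were separate. PSME3 fell by 1.45 (SE 0.08, adjusted p = 8.77e-10), 2.74-fold, under mix 1 and by 0.70 (SE 0.08, adjusted p = 2.28e-06) under mix 2, with 0.75 (SE 0.08, adjusted p = 2.69e-06) between the mixes. All 4 PSME3 probe sets fell under both mixes, by 0.65 to 1.45 under mix 1 and 0.66 to 1.10 under mix 2. Mix 1 was the lower in 2 of the 4, and in the others the difference between the mixes did not pass the threshold (adjusted p = 0.0568 and 0.0625).

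PSME4, a large nuclear activator, changed by -0.21 (adjusted p = 0.00138) under mix 1 and -0.14 (adjusted p = 0.0228) under mix 2. With its probe sets averaged, the mix 1 call was lost (-0.04, adjusted p = 0.717) and the mix 2 difference turned to 0.14. The mix 2 call was lost without control replicate C or mix 2 replicate B or C (adjusted p from 0.0502 to 0.075), and another PSME4 probe set rose by 0.23 under mix 1. PSMF1, named as an inhibitor of the core, fell under mix 1 and did not pass under mix 2. PSMF1 read 10.39, 10.34, 10.39 and 10.40 on the control arrays, 10.07, 10.01, 10.14 and 10.05 under mix 1, and 10.47, 10.48, 10.37 and 10.50 under mix 2. The mix 1 arrays were below all others, and control and mix 2 overlapped. PSMF1 differed by -0.31 (SE 0.05, adjusted p = 8.33e-05), 0.08 (adjusted p = 0.22) and, between the mixes, 0.39 (SE 0.05, adjusted p = 1.84e-05). Another probe set of PSMF1 rose by 0.31 under mix 1, and a further probe set fell by 0.43 under mix 2, so the direction for PSMF1 depended on the probe set.

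**Figure D3:**
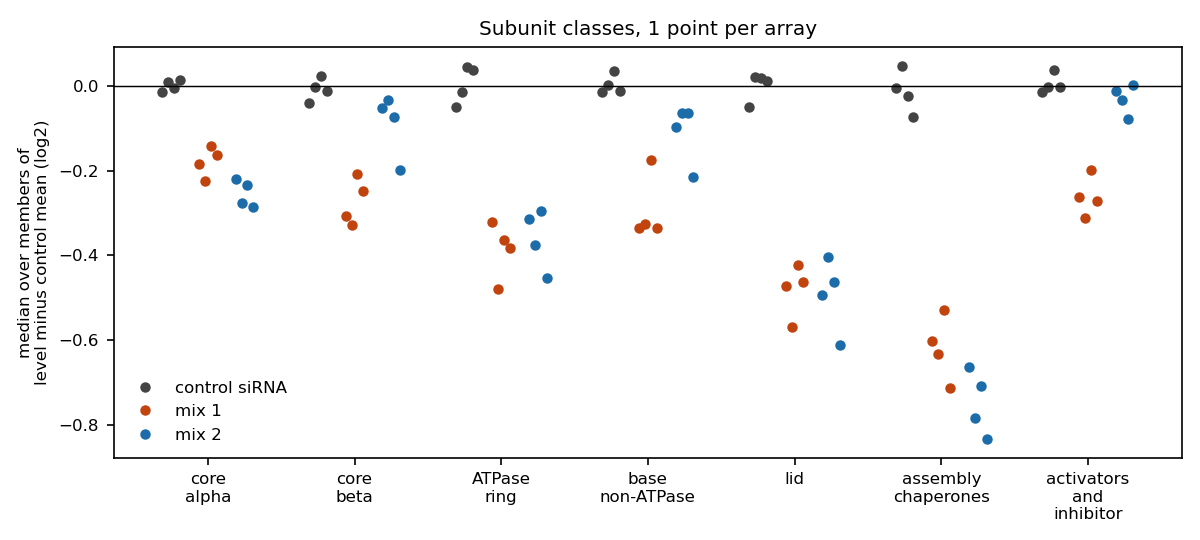
Median over the members of each subunit class of the level minus the control mean (vertical axis, log2), 1 point per array, for 4 control, 4 mix 1 and 4 mix 2 arrays. All mix arrays lie below the control arrays in the core alpha, ATPase ring, base non-ATPase, lid and assembly chaperone classes. Most mix 2 arrays lie nearer to control than mix 1 in the core beta, base non-ATPase and activator classes.

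Of the members, 22 had more than 1 probe set and 17 had 1. Beside the brightest, 30 further probe sets of 20 genes were above the filter. Tested with all 24650 probe sets above the filter, 16 of these 30 were called in the same direction as the brightest probe set of their gene under mix 1, and 2 in the opposite direction. The brightest probe set was itself called for 25 of these 30. Under mix 2, 13 were called the same way and none the opposite way, with the brightest called for 16. For mix 2 minus mix 1, 6 were called the same way and 2 the opposite way (PSMD12 and PSMF1), with the brightest called for 16. Of all probe sets, 65.0%, 66.2% and 51.3% were called in the 3 comparisons. Those shares count either direction, so they are not a background for agreement. Further probe sets were also called where the brightest was not in this fit: 1 under mix 1 (PSMA5), 5 under mix 2 (PSMA5, PSMC2 with 2, PSMD4 and PSMF1) and 3 between the mixes (PSMA5, PSMD9 and PSMD11). The second PSMD11 probe set was lower under mix 2 than under mix 1 by 1.17 (adjusted p = 1.49e-09), opposite in sign to the brightest, which gave 0.18 and missed the threshold in this fit (adjusted p = 0.0568).

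**Figure D4:**
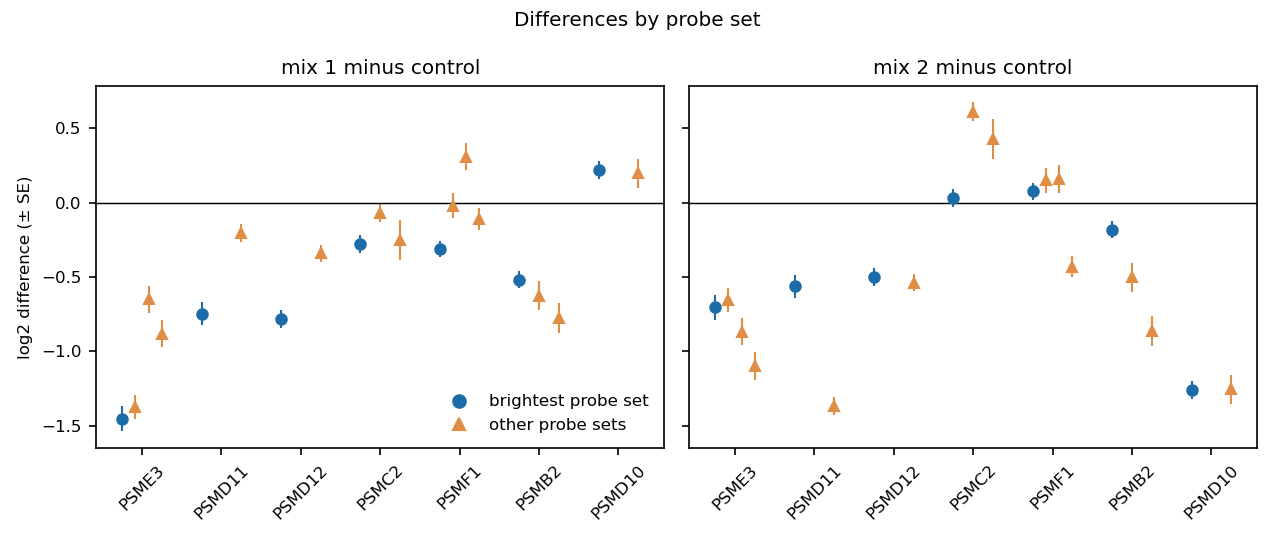
Log2 difference from control (vertical axis, with its standard error) of the brightest probe set (circles) and the other probe sets above the filter (triangles) of 7 members, for mix 1 and mix 2. The 4 probe sets of PSME3 and both of PSMD11 and PSMD12 lie below 0 under each mix. Those of PSMC2 lie below 0 under mix 1 and above 0 under mix 2, and those of PSMF1 lie on both sides. The PSMD11 sets differ in size, -0.56 and -1.37 under mix 2.

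The immunoproteasome subunits, which take the place of the catalytic beta subunits, rose under both mixes. PSMB9 (which replaces PSMB6) read 8.65, 8.76, 8.80 and 8.74 on the control arrays, 10.31, 10.18, 10.39 and 10.34 under mix 1, and 9.96, 9.90, 9.98 and 9.77 under mix 2. Every mix array was above every control array, and mix 2 was below mix 1. PSMB9 rose by 1.57 (SE 0.06, adjusted p = 2.98e-11) and 1.16 (SE 0.06, adjusted p = 6.01e-10), PSMB8, which replaces PSMB5, by 1.10 (SE 0.08, adjusted p = 1.68e-08) and 0.76 (SE 0.08, adjusted p = 7.95e-07), and PSMB10, which replaces PSMB7, by 1.18 (SE 0.09, adjusted p = 3.04e-08) and 1.14 (SE 0.09, adjusted p = 3.94e-08). Over the immunoproteasome and antigen processing list, 11 of 12 tested genes rose and 1 fell under each mix, with medians of 1.22 and 0.95, beside 0.005 and 0.03 over all genes, of which 34.8% and 36.7% rose. The gene that fell was TAP2, a peptide transporter subunit, by 0.62 and 2.17. NLRC5, the transcriptional activator of class I genes, rose by 2.01 and 1.53, and the peptide loading factor TAPBP by 1.55 and 1.08.

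**Figure D5:**
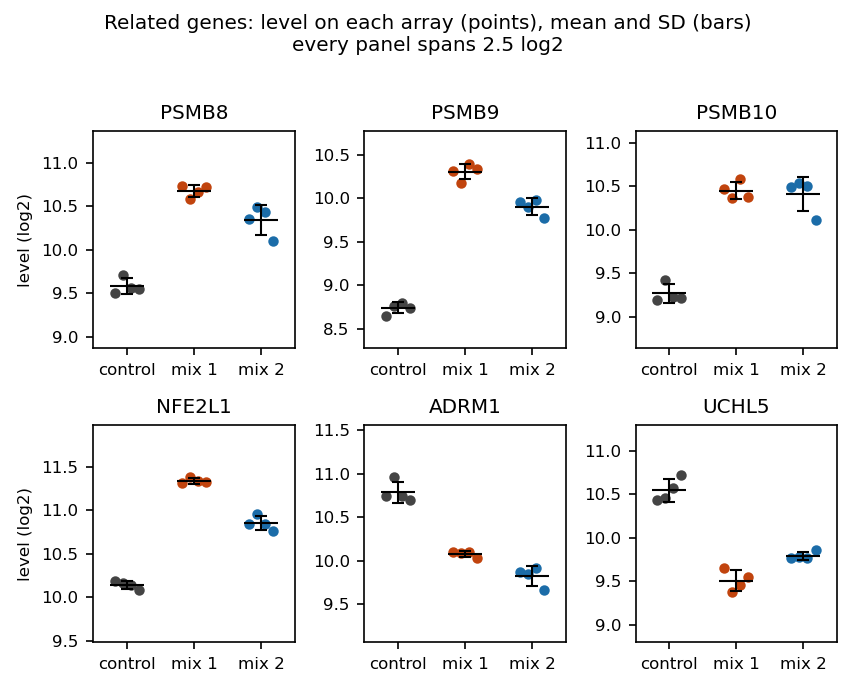
Log2 level on each array (vertical axis; points, with the mean and SD as bars) of PSMB8, PSMB9, PSMB10, NFE2L1, ADRM1 and UCHL5 in the control, mix 1 and mix 2 groups, 4 arrays each. The 3 immunoproteasome subunits and NFE2L1 are above control on every mix array, and ADRM1 and UCHL5 are below it on every mix array.

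A further list held proteins that belong to the proteasome or work with it but carry other symbols. Of 15 tested, 8 fell and 2 rose under mix 1 (median -0.13), and 10 fell and 2 rose under mix 2 (median -0.24). In all 66.7% of this list was called under mix 1 and 80% under mix 2, beside 67.1% and 68.6% of all genes, so the share under mix 1 was at the background. The ubiquitin receptor ADRM1 changed by -0.70 (adjusted p = 4.51e-07) and -0.96 (adjusted p = 1.35e-08), and its bound deubiquitinase UCHL5 by -1.04 (adjusted p = 1.25e-08) and -0.76 (adjusted p = 3.95e-07). The ubiquitin ligase UBE3C changed by -0.29 and -0.89, and the proteasome-binding zinc finger protein ZFAND5 rose by 0.94 and 0.74. SEM1, a lid subunit without a PSM symbol, changed by -0.975 (adjusted p = 1.3e-09) under mix 1 and -0.185 (adjusted p = 0.010) under mix 2. The mixes differed in SEM1 by 0.79 (adjusted p = 3.62e-08). Of 9 tested regulators around NFE2L1, 5 rose and 4 fell under mix 1 (median 0.16), and 4 rose and 3 fell under mix 2 (median -0.08). Of all genes, 34.8% rose and 32.3% fell under mix 1, and 36.7% and 31.9% under mix 2. NFE2L1 read 10.19, 10.16, 10.14 and 10.08 on the control arrays, 11.31, 11.38, 11.34 and 11.32 under mix 1, and 10.84, 10.96, 10.84 and 10.76 under mix 2. NFE2L1 was thus above control on every mix array, while most subunit genes were below it. It rose by 1.20 (SE 0.05, adjusted p = 8.79e-11) and 0.71 (SE 0.05, adjusted p = 2.47e-08), and was lower under mix 2 than under mix 1 by 0.49 (adjusted p = 3.24e-06). Of the others, NFE2L2 differed by 0.16 and 0.44, and VCP, the segregase that hands over ubiquitinated proteins, by 0.22 and 0.25. When probe sets were averaged, NFE2L2 turned to -0.025 under mix 1 and VCP to -0.0475 under mix 2, and the mix 2 call of NFE2L2 was lost (adjusted p = 0.0533). The mix 1 call of NFE2L2 (adjusted p = 0.0409) was also lost without control replicate B, C or D, replicate A, B or D of mix 1, or replicate A, B or C of mix 2 (adjusted p from 0.0508 to 0.156). For VCP, the mix 1 call (adjusted p = 0.018) was lost with averaging and without the _s_at and _x_at probe sets. It was also lost without control replicate D or mix 1 replicate C, and adjusted p reached 0.906 among these alternatives. MAFF, a small Maf partner, changed by -0.88 and -1.30, and UFD1, a VCP cofactor, by -0.47 and -0.56. Of 3 tested genes for ubiquitin precursors or ubiquitin-activating enzymes, 1 rose and 1 fell under mix 1 and 2 rose under mix 2. These counts stand beside the shares of all genes just given. UBA6, an activating enzyme gene, fell under mix 1, and UBA1, another such gene, rose under mix 2. The ubiquitin precursor UBB rose under each, by 0.24 and 0.24.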

How the data were processed

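MDA-MB-231 RNA was measured on 12 arrays, 4 per group. The deposited values are log2 levels made by RMA, per the submitters' processing notes; its software and settings are not stated in any source used here. The table held 54675 probe sets. Of these, 41091 had a single gene symbol, 1801 had several, 11777 had none and 6 were array controls for ACTB and GAPDH; 41037 of the single symbols were updated through current gene names and 54 were kept. Genes were represented by their brightest probe set and filtered at the 40th percentile of probe set means (5.46 on the log2 scale), which left 13225 genes.

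Differences were tested with limma 3.58.1 in R 4.3.3: 3 group means fitted over all 12 arrays (9 residual degrees of freedom), default eBayes, two-sided, with Benjamini-Hochberg adjustment over all genes tested and a threshold of 0.05. The analysis was tested on simulated data. The number of arrays limits the precision. Genes given in full were, per comparison, the up to 5 largest rises and falls past the threshold among the members and any member called in opposite directions under the mixes, plus, of each list, up to 3 per direction called under both mixes. PSMD14, and members given without all arrays, were added to account for every member, and SEM1 was added as a lid subunit with another symbol. The members and lists were chosen with earlier results of these data known. Alternatives to the filter, probe set choice, centring, fit and gene names were tried, and each array was left out in turn. The average over the probe sets of a gene took in those below the filter.

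Replicate letters were checked as pairs: same-letter deviations correlated at 0.251 to 0.409 between mix 1 and control. Letters A, C and D correlated most with their own letter there, and letter B correlated more with another letter (0.374). The labels do not say that the letters pair samples across groups, and these values do not settle it. The reported fit has no block, and the letter was a block in an alternative. The correlations were 0.0338 to 0.212 between mix 2 and control and -0.0853 to 0.273 between the mixes. Between mix 2 and control, letters A, B and C correlated more with another letter (0.234, 0.155 and 0.233). Between the mixes, letter B did (0.274). Levels of different probe sets were not set against each other, because probes differ in affinity.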

Additional observations from a re-analysis of the deposited data

Results flagged for a closer look

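Single arrays stood apart from the rest of their group in 8 of 117 groups of 4 by Dixon's test at its 95% critical value, and chance alone flags about 1 in 20 groups. PSMA2 read 12.34 on mix 2 replicate B, where the others read 12.44. PSMA5 read 12.11 on control replicate D, where the others read 12.07. PSMC2 read 12.23 on mix 1 replicate B, below 12.37 to 12.38. PSMC4 read 10.40 on mix 2 replicate D, below 10.60 to 10.61. PSMD1 read 11.19 on mix 1 replicate C, above 11.03 to 11.04, and 11.15 on mix 2 replicate D, below 11.28 to 11.30. PSMD14 read 12.24 on control replicate A, below 12.29 to 12.30, and PSMF1 read 10.34 on control replicate B, below 10.39 to 10.40. All of these gaps were at most 0.20 on the log2 scale. PSMD10 was called in opposite directions under the mixes, and the direct limma comparison of mix 2 with mix 1 gave -1.48 (adjusted p = 9.57e-11).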

How the results depend on the processing

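Of the member calls, 25 of 32 under mix 1, 25 of 28 under mix 2 and 10 of 21 between the mixes held under every alternative run in which the gene was tested. Leaving out each array in turn gave 30 to 32 members called under mix 1, 27 to 28 under mix 2 and 18 to 21 between the mixes. With all arrays, 67.1%, 68.6% and 53.7% of all genes were called in these comparisons. With the letters as a replicate block, 32, 28 and 20 members were called, and over all genes 9194, 9380 and 7570, where the fit without it called 8878, 9070 and 7096; among the members the block ended the PSMD11 call between the mixes (adjusted p = 0.0512). In the reported fit 67.1% of all genes were called under mix 1. Without probe sets of the _s_at and _x_at kind, fewer members could be tested, and 21 of 28 were called under mix 1. The same setting turned PSMF1 to 0.31 under mix 1, VCP to -0.34 under mix 2 and, between the mixes, PSMB2 to -0.0875, PSMD11 to -1.17, PSMF1 to -0.15, PSMG4 to -0.08, VCP to -0.35 and UCHL5 to -0.17. Averaging the probe sets of a gene turned NFE2L2 to -0.025 under mix 1, PSME4 to 0.14 and VCP to -0.0475 under mix 2 and, between the mixes, PSMB7 to -0.015, PSMD11 to -0.49, ZFAND5 to 0.0125 and VCP to -0.16. The cause was not tested. Changes in signal close to background, as for PSMA8, could not be assessed.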
